A study of Mus musculus with 12 samples.

Results

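Aggregates of mouse embryonic stem cells (ESC) that received no morphogen were compared between day 7 (D7) and day 8 (D8) of culture. The 6 control libraries, 3 at each day, were chosen by their labels out of the 12 libraries of the series, and the comparison covered 12623 of the 24946 genes in the table, those with a mean above 1 TPM (transcript abundance corrected for gene length and scaled to a fixed total, rounded to whole numbers in the deposited table) at either day. The study merged ESC aggregates of different sizes to form embryoids, after giving BMP4 to the smaller of the pair, and used the merger of untreated aggregates as its control. Both control groups came, by their labels, from the ESC line E14TG2a of the strain 129/ola. Each control was the merger at D3 of an untreated aggregate of 50 cells with an untreated aggregate of 100 cells, kept in the serum-free medium N2B27 until D7 or D8, with no BMP4 or other morphogen at any time. The other 6 libraries, from embryoids at D7 and D8, served only for the comparison of the day effect at the end. RNA was taken from pools of aggregates, so that each library is an average over many aggregates of a single line, and every statement below concerns the average aggregate. In such bulk samples, fewer cells of a type and less RNA per cell cannot be told apart.

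Serum-free culture without morphogens is known to lead mouse ESC towards anterior neural tissue. Neural progenitors then leave the cell cycle under the control of proneural transcription factors such as NEUROG2 and switch on cytoskeletal, adhesion and synaptic genes. At the dorsal midline of the forebrain, the cortical hem secretes WNT and BMP proteins and gives rise to Cajal-Retzius neurons, which secrete the glycoprotein reelin, while the neighbouring choroid plexus carries multiple motile cilia whose formation is directed by GMNC, MCIDAS, CCNO, FOXJ1 and TAp73.

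The library labels were checked first. Hprt, a purine salvage enzyme of which E14TG2a is generally described as lacking a functional copy (background that the sources used here do not give), was listed at 35, 34 and 36 in the libraries labelled control D7 and at 35, 33 and 32 in those labelled control D8, but at 0 or 1 in all 6 libraries labelled embryoid. The submitters' library names begin with WT for the controls and with E14 for the embryoids. The control values go against the line label on that description, and a difference of line between controls and embryoids cannot be told apart from the treatment. Both control days shared the high Hprt level. The totals were between 997897 and 998158 in the 6 controls, as rounded TPM must be, so read depth is unknown and no counting error can be given. Genes with a value above 0 numbered 13302 to 13346 at D7 and 13561 to 13589 at D8, and the genes of ribosomal proteins took 12.8% to 13.4% of the total at D7 against 10.7% to 11.2% at D8, whose part in the results was not tested. On the first principal component over the 500 genes that varied most, which held 41.3% of the variance, all D7 controls lay on one side and all D8 controls on the other.

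Genes of anterior neural tissue were measured at both days. The summed level of 7 anterior neural markers was 506 to 516 at D7 and 415 to 424 at D8. Emx2, a homeobox gene of the dorsal forebrain, was at 95, 106 and 99 at D7 against 107, 104 and 110 at D8, and Otx2, required for forebrain and midbrain, was at 299, 282 and 281 and then at 208, 225 and 215. Markers of other cell types were low: the 7 mesoderm markers summed to 2 to 3 at D7 and 5 to 6 at D8 with 4 listed at 0 throughout, the 7 endoderm and yolk sac markers to 1 to 2 and 2 to 3 with 3 at 0, and the 5 endothelium and blood markers to 1 to 2 at both days with 3 at 0. The 4 neural crest markers summed to 2 and then 3 with 2 at 0, the 6 hindbrain and trunk markers (among them Hoxb8 and Cdx2) were all listed at 0, and the 4 pluripotency markers summed to 10 to 13 and 13 to 14.

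Between the days, 342 genes were higher at D8 and 26 were lower (limma on log2(TPM + 1), Benjamini-Hochberg adjusted p below 0.05 and a log2 change beyond 1 in size), which is 2.71% and 0.206% of the genes tested. In all 368 of them the 3 values of a day did not overlap those of the other, whereas over all tested genes D8 lay wholly above D7 in 33.1% and wholly below in 16.5%. The change was mostly an increase of modest size: the median log2 increase among risen genes was 1.33, only 29 rose by more than 2 on the log2 scale, and the median over all tested genes was 0.06. Of the risen genes, 39 were listed at 0 in every D7 control, and 8 of the fallen genes were listed at 0 in every D8 control. A limit of the table is that whole-number values left 705 tested genes with no spread within either day, 32 of them called, and 93 called genes with both means below 5. The plot of group means shows the increases reaching from the lowest levels to Tubb3 and Nnat.

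**Figure D1:**
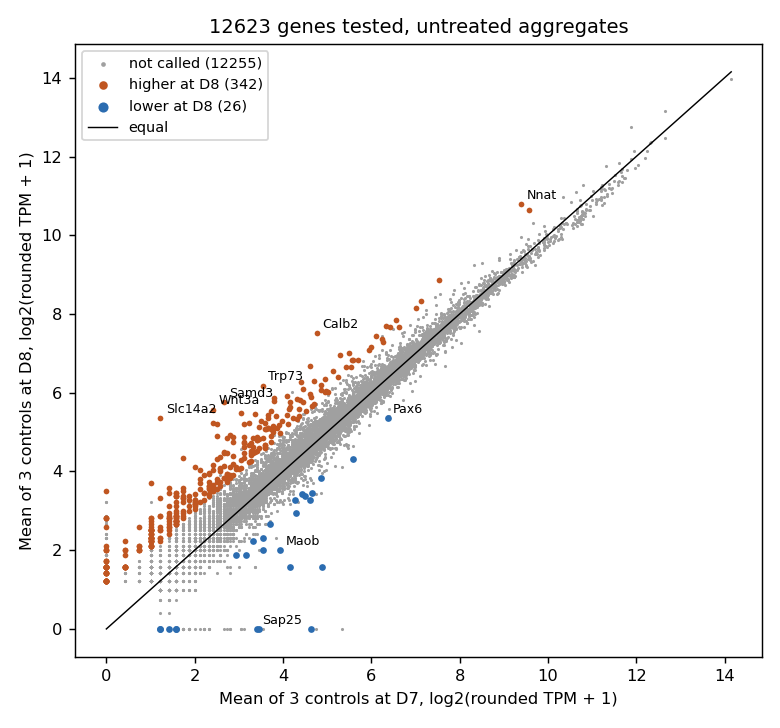
Mean of the 3 controls at D8 against the mean of the 3 controls at D7, both as log2(rounded TPM + 1), for the 12623 genes tested, with the line of equal values. The 342 genes higher at D8 lie above the line over the whole range of levels, and the 26 lower at D8 lie below it.

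The 15 largest increases included a transporter, a morphogen, neuronal genes and 3 microRNA rows. The row of Mir17, described with the short transcripts, ranked behind Slc14a2 alone, and Mir1898 and Mir30b were listed at 0 in each D7 control and at 6 in each D8 control. The lowest microRNA value above 0 was 4 or 5 in every control, so a value of 6 is close to the smallest step, and these 3 rows are uncertain. In a fit of all 12 libraries Mir17 and Mir30b lost their calls (limma adjusted p = 0.0525 and 0.0744). Slc14a2, a urea transporter, was at 2, 1 and 1 at D7 against 38, 37 and 44 at D8. Wnt3a, a WNT ligand of the cortical hem, went from 4, 4 and 5 to 44, 44 and 51. Samd3, a gene of Cajal-Retzius neurons that encodes a SAM domain protein, went from 4, 7 and 5 to 58, 47 and 55. None of these D8 values came near a D7 value, and the log2 increases were 4.15 ± 0.20, 3.15 ± 0.11 and 3.12 ± 0.20 (SE, 3 libraries a day; limma adjusted p = 0.00024, 7.6e-05 and 0.00069). Asic2, an acid-sensing ion channel, was at 0, 1 and 2 and then at 13, 11 and 12, and Masp1, a serine protease, at 3, 5 and 5 and then at 36, 33 and 40. Chl1, an adhesion molecule of the L1 family, was listed at 0 in each D7 control and at 7, 5 and 6 at D8. Lhx1os, a transcript beside the homeobox gene Lhx1, rose from 2, 2 and 3 to 20, 17 and 21, and Sertm1, which encodes a small transmembrane protein, from 6, 8 and 8 to 45, 40 and 46. Each of these 5 genes was higher in every D8 library than in any D7 library.

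Neuronal genes formed the largest group that rose. Among 49 tested genes used by most neurons, 30 rose and none fell, and 48 had all D8 values above all D7 values, against 33.1% over all genes. Their median log2 change was 1.13, beside 0.06 over all genes. Tubb3, which encodes the neuronal beta-tubulin, was at 781, 750 and 763 at D7 against 1579, 1570 and 1660 at D8, a mean 2.10-fold higher. Dcx, a microtubule-associated protein of young migrating neurons, rose from 14, 16 and 18 to 65, 54 and 58 (log2 change 1.82 ± 0.12 SE, limma adjusted p = 0.00066). Mapt, which encodes tau, had the largest increase of the list, from 9, 7 and 9 to 37, 34 and 38. For these genes no D7 library reached a D8 library, and the spread among the 3 libraries of a day was small beside the change between days. Stmn2, a regulator of microtubules in growing axons, rose from 88, 68 and 84 to 211, 197 and 209, and Gap43, a growth cone protein, from 198, 167 and 187 to 453, 450 and 482. Syt1, the calcium sensor of transmitter release, went from 2 in each library to 10 in each. Tagln3, Nefl and Syp, at log2 changes of 0.99, 1.00 and 0.98, stayed within the limit of 1 and were not called. Over the 5 marker genes of neurons the summed level was 853 to 902 at D7 and 1867 to 1977 at D8.

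Transcription factors that commit progenitors to the neuronal fate were higher as well. All 30 tested members of this list had a positive log2 change, 13 rose, none fell, and the median log2 change was 0.97. The share that rose was 43.3%, beside 2.71% of all genes tested. Neurog2, the proneural factor of the dorsal forebrain, was at 10, 12 and 12 at D7 against 34, 30 and 34 at D8. Nhlh1, which acts just downstream, was at 16 in each D7 library and at 42, 41 and 43 at D8, and its relative Nhlh2 rose from 8, 9 and 10 to 24, 23 and 24. Neither day overlapped the other for these 3 factors. Myt1l, a repressor of non-neuronal genes, was listed at 0 in the D7 controls and at 3 in each D8 control. The 3 EBF factors, Ebf1, Ebf2 and Ebf3, rose together, Ebf2 from 5 in each library to 16, 15 and 16. Neurod1 went from 3 to 7 in every library, a log2 change of 1.00 that did not pass the limit, while Neurog1 (log2 change 0.62) and Eomes (0.92) were not called. Among the 9 tested genes of transmitter identity 5 rose, among them Slc17a6, the vesicular glutamate transporter, from 0, 1 and 1 to 3, 3 and 3, a call at the lowest levels that was lost when any 1 of the 6 libraries was left out (a log2 change of 1.00 without D7 replicate 1, limma adjusted p from 0.0529 to 0.0936 without any of the others). Th, at 0, 0 and 1 and then at 2 in each library, lost its call when any library but D7 replicate 3 was left out (limma adjusted p from 0.0961 to 0.105). The 5 also include Calb2, the gene of a calcium-binding protein, which is counted again among the Cajal-Retzius genes below. Gad1, Gad2 and Slc32a1, which mark inhibitory neurons, did not reach the level needed for testing.

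The promoters of 2 genes of these groups are shown because they hold a motif of proneural factors. The letters CAGATG, an E-box of the type bound by NEUROG and NEUROD proteins, were searched on both strands of the RefSeq promoter windows (build GRCm38.p6), each running from upstream of an annotated start to just after it. Of the 43 risen commitment factors and pan-neuronal genes 29 had a window, and 12 of those 29 (41.4%) held the letters in at least 1 window, beside 13.1% of the 9714 tested genes with a window. By window the share was 37.3% of 51, beside 11.1% of the 12435 windows of tested genes and 17.2% of all 32851 windows, and windows of the same gene can overlap. A second E-box, CAGCTG, which differs from the first in 1 letter, was in 34.5% of the same 29 genes, beside 17.5% of tested genes with a window, and in 25.5% of the 51 windows, beside 15.0% of the windows of tested genes and 16.3% of all windows. Over all 244 risen genes with a window, CAGATG was in 56 (23.0%) and CAGCTG in 61. A match describes the letters only. Myt1l lies at chr12:29528134-29528433 (plus strand) and L1cam, an adhesion molecule of growing axons that rose from 4, 3 and 4 to 14, 13 and 15, at chrX:73880741-73881040 (minus strand). Exons of L1cam overlap those of Arhgap4 on the same strand, so the assignment of reads between these genes is uncertain. Capitals mark the letters, which are read on the other strand in Myt1l, where they begin at position -146 relative to the start, and at position -134 in L1cam.
Myt1l: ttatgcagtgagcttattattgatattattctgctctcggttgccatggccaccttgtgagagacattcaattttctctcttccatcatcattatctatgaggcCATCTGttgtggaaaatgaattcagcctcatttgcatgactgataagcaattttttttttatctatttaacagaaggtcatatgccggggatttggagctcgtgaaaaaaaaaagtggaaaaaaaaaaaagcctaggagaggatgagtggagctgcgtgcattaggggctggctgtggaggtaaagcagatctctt
L1cam: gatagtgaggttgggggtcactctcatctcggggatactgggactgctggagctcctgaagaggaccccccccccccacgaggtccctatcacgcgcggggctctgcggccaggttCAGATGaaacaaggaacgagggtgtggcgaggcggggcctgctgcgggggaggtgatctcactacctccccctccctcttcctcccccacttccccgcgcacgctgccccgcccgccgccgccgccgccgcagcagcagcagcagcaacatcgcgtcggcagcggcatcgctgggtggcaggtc

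Genes of Cajal-Retzius neurons gave the largest median change of the lists with at least 20 tested members. Of 23 tested members 12 rose (52.2%, beside 2.71% of all genes tested) and none fell, and the median log2 change was 1.30. Calb2, which encodes the calcium-binding protein calretinin, was at 22, 28 and 29 at D7 against 194, 150 and 202 at D8. Tbr1, a T-box factor of early glutamatergic neurons, rose from 4, 5 and 5 to 40, 31 and 36, and Trp73, the p53 relative p73, from 10, 12 and 10 to 71, 68 and 75. The D8 values were at least 5 times the highest D7 value for Trp73, Calb2 and Tbr1 alike. Reln, which encodes reelin, was low at D7, at 1, 1 and 2, and was at 10, 8 and 9 at D8, a log2 increase of 2.12 ± 0.20 (SE, limma adjusted p = 0.0021). Lhx1, a LIM-homeobox factor of these neurons, rose from 3 in each library to 17, 15 and 17, and Barhl2, a homeobox factor, from 7, 6 and 6 to 20, 19 and 21. Several members did not move with the rest. Lhx5, another factor of the hem and of Cajal-Retzius neurons, was at 18, 20 and 19 and then at 20, 22 and 20, with overlapping days, and Cxcr4, the chemokine receptor that these neurons use in migration, was at a mean of 47.3 ± 3.1 (SD, n = 3) and then 60.7 ± 2.1, a log2 change of 0.35. Zic1 had a log2 change of -0.20. The list shares Trp73 with the ciliary list below, Tbr1 with the commitment factors and Calb2 with the genes of transmitter identity, so the lists are not independent of each other.

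**Figure D2:**
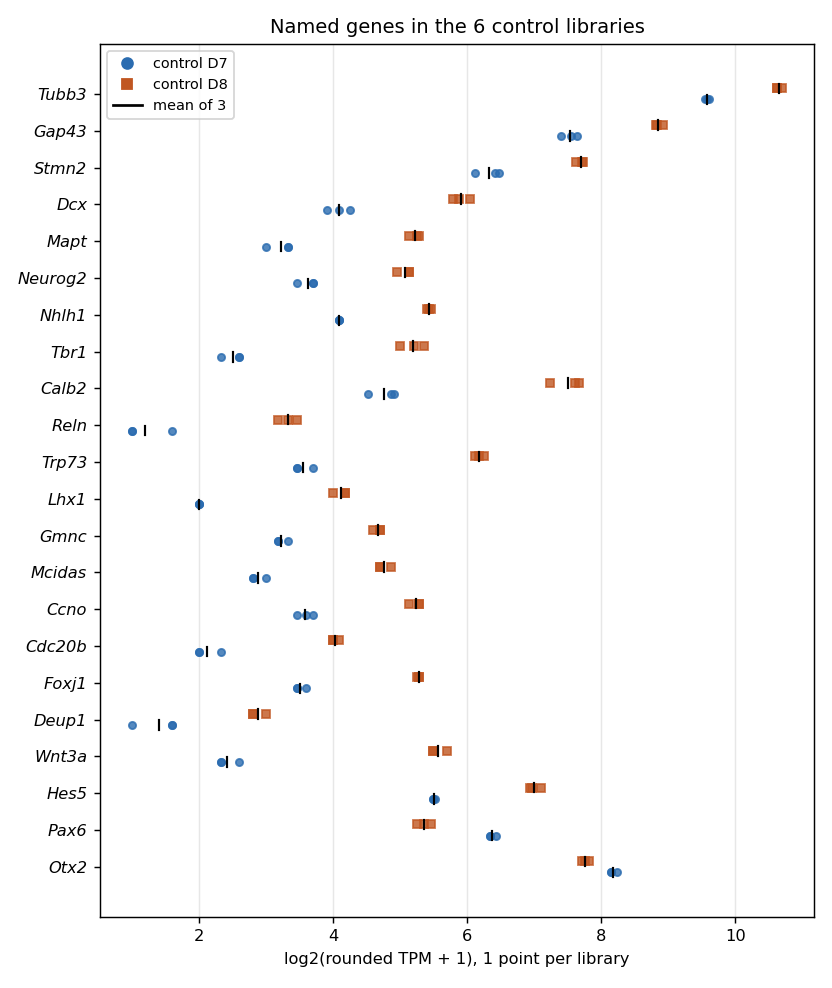
Values of 22 named genes as log2(rounded TPM + 1) in each of the 6 control libraries (circles D7, squares D8, 1 point per library), with the mean of each group of 3. The D8 points lie to the right of all D7 points for each gene except Pax6 and Otx2, where they lie to the left.

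Of the tested regulators of multiciliated cells 32.1% rose, and of the tested genes of the motile axoneme 4.48%, beside 2.71% of all genes tested. Of 28 tested regulators 9 rose and none fell, with a median log2 change of 0.21 beside 0.06 over all genes. Among the 28, 15 had all D8 values above all D7 values and 2 had all of them below, against 33.1% and 16.5% over all genes, and 8 had a negative log2 change. Gmnc, which starts the multiciliated programme, was at 8, 9 and 8 at D7 against 25, 23 and 25 at D8, and its relative Mcidas rose from 7, 6 and 6 to 25, 25 and 28. Ccno, a cyclin needed to make many centrioles, rose from 11, 12 and 10 to 34, 38 and 38, and Foxj1, the master regulator of motile cilia, from 10, 11 and 10 to 38, 37 and 38. The values of each day were tight and far apart, and the log2 increases of these 4 lay between 1.44 and 1.88. Deup1, a component of the structures from which many centrioles are made, rose from 2, 2 and 1 to 7, 6 and 6, and Cdc20b from 3, 4 and 3 to 16, 15 and 15. Foxn4, a forkhead factor of this programme, went from 1 in each library to 4 in each, and Shisa8 from 1, 2 and 1 to 7, 6 and 6. At a pseudocount of 5 neither Deup1 (log2 change 0.77) nor Shisa8 (0.84) was called. The 5 markers of multiciliated cells summed to 35 to 40 at D7 and to 129 to 135 at D8.

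Factors that act on cilia in many cell types were not called. Rfx2, an RFX factor that cooperates with FOXJ1, was at 20, 22 and 21 and then at 24, 24 and 25 (log2 change 0.20), and Rfx3 at 12, 13 and 13 and then at 13, 12 and 12. E2f4, which works with MCIDAS, had a log2 change of -0.12, and Plk4 and Sass6, general makers of centrioles, of -0.05 and -0.02 with overlapping days. Among the 67 tested genes of the motile axoneme 3 rose and none fell, with a median log2 change of 0.20, and 34 of the 125 members in the table were listed at 0 in all controls. All D8 values lay above all D7 values in 27 of the 67 and below in 8, against 33.1% and 16.5% over all genes. Drc3, of the dynein regulatory complex, rose from 4, 4 and 3 to 10, 11 and 9 and Nme5, of the radial spoke, from 4, 5 and 5 to 11, 12 and 9, while 1110017D15Rik rose from 2, 1 and 1 to 4, 5 and 5. The call of Nme5 was lost after median-of-ratios (0.999) or quantile scaling (0.85) and without D7 replicate 1 (0.95) or D8 replicate 2 (0.96), and at a pseudocount of 5 Drc3, Nme5 and 1110017D15Rik had log2 changes of 0.79, 0.69 and 0.61, none of them called. Of the 67, 29 had a D8 mean below 5, where whole-number values are coarse. Among 48 tested genes of the primary cilium and intraflagellar transport none was called by limma, 23 having an unadjusted p below 0.05 (14 higher, 9 lower). At an adjusted p below 0.05, 14 were higher and 6 lower, beside 3575 and 1757 of all 12623 genes tested. The median log2 change was 0.04, the sign of which was negative after median-of-ratios or quantile scaling.

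Ccno, Mcidas and Cdc20b lie side by side on chromosome 13, and their neighbours did not rise with them. By the GENCODE M21 annotation (GRCm38, the assembly also called mm10), Ccno lies at chr13:112987802-112990777, Mcidas at chr13:112993845-113000394 and Cdc20b at chr13:113035111-113091195, all on the plus strand. On one side, Dhx29 was at 56, 63 and 64 at D7 against 58, 58 and 60 at D8. Within the span of Cdc20b but on the other strand, Gpx8 was at 148, 149 and 145 and then at 138, 151 and 152. Neither neighbour was called, and their days overlapped. The microRNA genes Mir449a, Mir449b and Mir449c, inside Cdc20b, held at most 1 value above 0 per day. A second pair of neighbours was Wnt3a and Wnt9a on chromosome 11, a WNT ligand that rose from 37, 37 and 36 to 81, 80 and 91, whereas Arf1 on the other side of Wnt3a had a log2 change of 0.17. Another group was the nicotinic acetylcholine receptor genes on chromosome 9: Chrna3 rose from 7, 8 and 8 to 23, 23 and 25 and Chrnb4 from 5, 6 and 6 to 12, 12 and 13, with Chrna5 at 3, 2 and 3 and then at 7, 5 and 5 (log2 change 0.86, not called). These 3 places and their neighbours were picked after their values were seen.

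**Figure D3:**
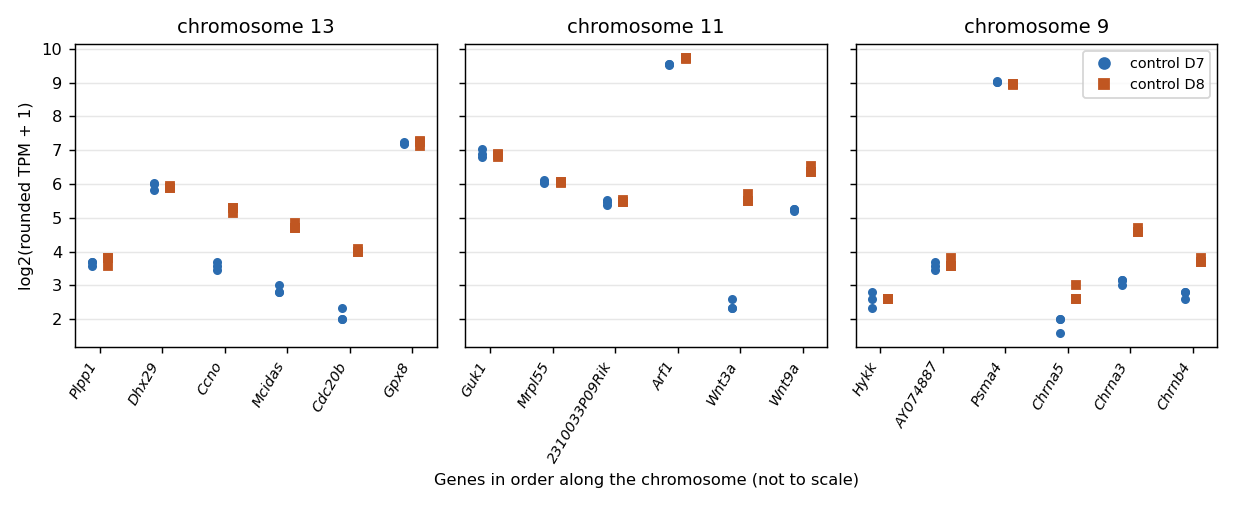
Values as log2(rounded TPM + 1) of neighbouring protein-coding genes, in chromosomal order, in the 3 controls at D7 (circles) and the 3 at D8 (squares). Ccno, Mcidas and Cdc20b on chromosome 13, Wnt3a and Wnt9a on chromosome 11 and Chrna3 and Chrnb4 on chromosome 9 lie higher at D8, while Dhx29 and Gpx8 overlap between days.

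The promoters of Mcidas and Ccno, and that of Shisa8, are shown because each holds the core of an X-box, the element bound by RFX factors. The letters GTTGCC were searched on both strands of the same RefSeq windows (build GRCm38.p6). Of the 12 risen genes of the regulator and axoneme lists 10 had a window, and 6 of those 10 held the letters, beside 15.2% of the tested genes with a window and 19.7% of the 244 risen ones. By window it was 6 of 14 (42.9%), beside 12.9% of the windows of tested genes and 12.5% of all windows. Deup1, 1110017D15Rik and Trp73 held the letters in one of their windows, and Gmnc, Cdc20b, Foxn4 and Drc3 in none, which says only that these letters are not there. The windows are chr13:112993618-112993917 (plus strand), chr13:112987552-112987851 (plus strand) and chr15:82212766-82213065 (minus strand), and capitals mark these letters, which begin at positions -195, -219 and -241 relative to the start.
Mcidas: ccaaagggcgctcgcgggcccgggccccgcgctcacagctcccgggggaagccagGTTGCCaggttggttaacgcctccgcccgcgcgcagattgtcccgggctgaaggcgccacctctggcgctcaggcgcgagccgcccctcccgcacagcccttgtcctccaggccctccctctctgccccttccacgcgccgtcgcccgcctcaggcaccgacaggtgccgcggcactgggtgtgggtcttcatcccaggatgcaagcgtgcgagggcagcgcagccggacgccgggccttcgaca
Ccno: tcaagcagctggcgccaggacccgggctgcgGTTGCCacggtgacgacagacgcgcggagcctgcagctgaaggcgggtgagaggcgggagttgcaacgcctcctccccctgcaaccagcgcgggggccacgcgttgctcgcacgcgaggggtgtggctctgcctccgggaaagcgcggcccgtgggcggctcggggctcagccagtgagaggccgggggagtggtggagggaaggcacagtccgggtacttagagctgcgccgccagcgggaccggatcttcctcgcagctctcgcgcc
Shisa8: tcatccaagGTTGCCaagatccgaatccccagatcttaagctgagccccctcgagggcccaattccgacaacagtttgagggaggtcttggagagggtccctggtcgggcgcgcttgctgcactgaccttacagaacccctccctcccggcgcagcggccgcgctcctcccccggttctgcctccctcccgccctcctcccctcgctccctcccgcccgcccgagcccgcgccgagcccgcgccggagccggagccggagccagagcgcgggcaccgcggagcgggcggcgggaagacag

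Signals of the cortical hem were present at D7, and a few of them rose. Of 23 tested genes of the hem and roof plate 3 rose and none fell, with a median log2 change of 0.30, and 17 had all D8 values above all D7 values, against 33.1% over all genes. Besides Wnt3a, the homeobox gene Msx2, a target of BMP signalling, went from 1 in each library to 6 in each, and Dkk3 from 2 in each to 6, 5 and 7. At a pseudocount of 5 neither Msx2 (log2 change 0.87) nor Dkk3 (0.65) was called. Other hem genes were already high. Lmx1a, a LIM-homeobox factor of roof plate and hem, was at 83, 94 and 89 and then at 119, 115 and 122 (log2 change 0.42, not called), and Wls, which carries WNT proteins to the cell surface, at 422, 438 and 448 and then at 483, 493 and 482. Wnt8b and Rspo2 had log2 changes of 0.20 and 0.24. Wnt3a was thus the only member of this list whose log2 change exceeded 2. Ttr, which encodes transthyretin and is the leading gene of choroid plexus, rose from 20, 21 and 20 to 77, 78 and 74. Ttr and Foxj1 were the only ones that rose among 16 tested choroid plexus genes (12.5%, beside 2.71% of all genes tested). Of the 16, 11 lay wholly above their D7 values and 1 wholly below. Ttr is also made by yolk sac endoderm, whose part in this value was not tested. In the list of endoderm and yolk sac genes, which holds Ttr, 12 of 25 members were listed at 0 in all controls and 7 were tested, among them Cldn6 at 6 in each D7 library and 12, 13 and 9 at D8 (log2 change 0.80, not called) and Dab2 at 7, 7 and 8 and then at 6, 5 and 4 (-0.49, not called).

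Some genes of the signalling pathways were called. Of 50 tested WNT genes 5 rose (10%, beside 2.71% of all genes tested) and none fell. Their median log2 change was 0.18. All D8 values lay above all D7 values in 26 of the 50 and below in 11, against 33.1% and 16.5% over all genes. Of the ligands Wnt3a and Wnt9a rose, whereas Wnt7b (log2 change 0.30) and Wnt8b (0.20) were not called. Apart from these ligands and Dkk3, a secreted protein of the Dickkopf family, Sp5, a direct target of WNT signalling, rose from 7, 6 and 6 to 14, 13 and 15, and Ror2, a receptor of WNT5A, from 5, 6 and 6 to 15, 12 and 16, although Sp5 lost its call after median-of-ratios or quantile scaling and without D8 replicate 3 (0.99, 0.87 and 0.99). At a pseudocount of 5 neither Sp5 (0.75) nor Ror2 (0.85) was called. Axin2, a target common to many tissues, was at 101, 97 and 94 and then at 130, 133 and 146, a log2 change of 0.48 that was not called. The inhibitor Sfrp2 was at 109, 101 and 103 and then at 56, 58 and 53 (log2 change -0.89), and Sfrp1 at 81, 84 and 85 and then at 48, 48 and 45 (log2 change -0.81), both with days that did not overlap but short of the limit, and both picked after their values were seen. In the BMP and TGF-beta pathway 3 of 34 tested genes rose (8.82%), and 15 lay wholly above their D7 values and 1 wholly below. The risen genes were the target Id1, from 70, 68 and 66 to 174, 163 and 181, Msx2, and the ligand Gdf5, from 1, 0 and 0 to 3 in each library. The call of Gdf5 was lost when any library but D7 replicate 1 was left out (limma adjusted p from 0.0529 to 0.0611). Bmp4 itself was at 14, 17 and 16 and then at 29, 29 and 34, a log2 change of 0.93. In the FGF pathway Dusp4, a phosphatase that limits MAP kinase activity, rose from 22, 24 and 24 to 66, 56 and 64 while Spry1, another feedback inhibitor, had a log2 change of -0.95 and was not called. Hes5, the Notch target that holds progenitors back from differentiation, rose from 44, 44 and 45 to 124, 121 and 136, and Mfng, a modifier of Notch, from 47, 45 and 45 to 100, 97 and 103. The other 25 of 27 tested Notch genes were not called, which leaves 7.41% risen. Of the 27, 17 lay wholly above their D7 values and 3 wholly below, with a median log2 change of 0.31.

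**Figure D4:**
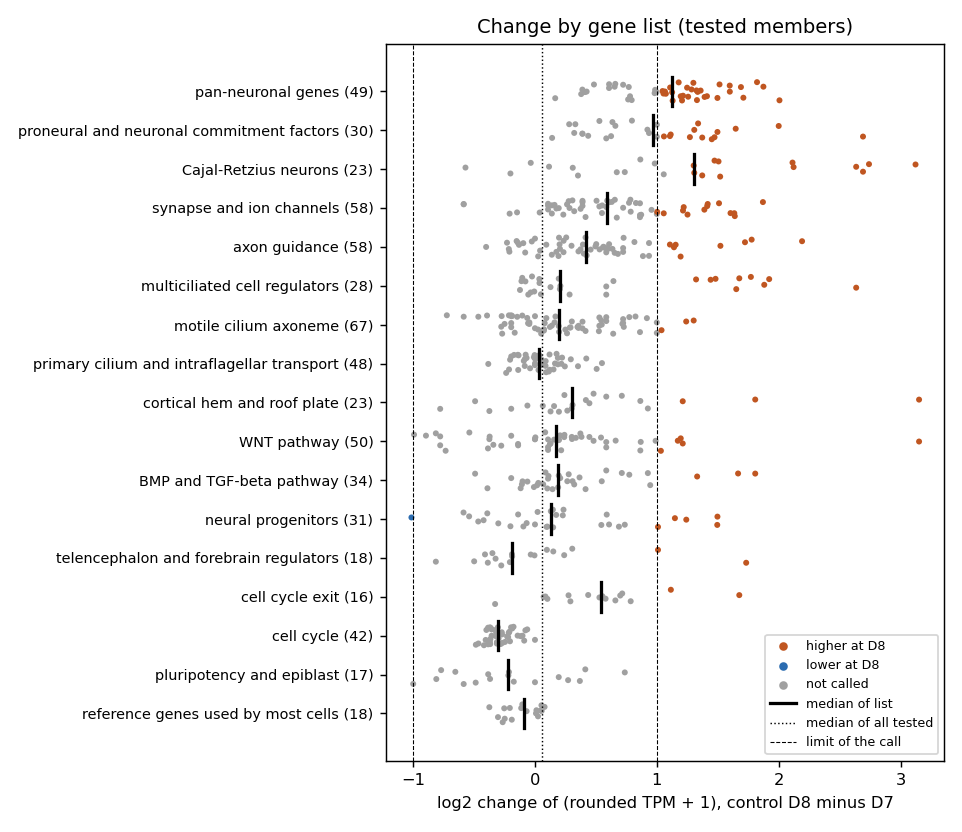
Log2 change of (rounded TPM + 1), D8 minus D7, for each tested member of 17 gene lists (points, with the number tested in brackets), the median of each list (bar), the median of all tested genes (dotted line, 0.06) and the limits of the call (dashed lines). Neuronal and Cajal-Retzius lists lie to the right, the regulators of multiciliated cells split into a risen set and a set near 0, and all but 1 cell cycle gene lie to the left of 0.

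Progenitor genes changed in both directions. Of 31 tested progenitor genes 5 rose (16.1%, beside 2.71% of all genes tested) and 1 fell. All D8 values lay above all D7 values in 12 and below in 8, against 33.1% and 16.5% over all genes. Pax6, a factor of dorsal forebrain progenitors and eye, was the gene that fell, from 85, 80 and 80 to 40, 43 and 37 (log2 change -1.01 ± 0.06 SE), just past the limit, and it was not called without D7 replicate 1 (-0.98) or without D8 replicate 3 (-0.96). Lhx2, a selector of cortex over hem, rose from 15, 21 and 21 to 44, 35 and 38, a call that was lost under both other scalings (0.97 and 0.90) and without D7 replicate 1 (0.86) or D8 replicate 1 (0.92). Slc1a3, a glutamate transporter of radial glia, rose from 13, 14 and 14 to 34, 33 and 34, and Nfia, a factor of later progenitors, from 1 in each library to 5, 4 and 5. Vim, Nes and Sox2, which mark progenitors in general, had log2 changes of 0.15, 0.13 and -0.10. Among forebrain regulators Emx1, a marker of dorsal telencephalon, rose from 5, 7 and 5 to 22, 19 and 22, and the median over 18 tested members was -0.19.

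Of 42 tested cell cycle genes 41 had a negative log2 change, and the other had a change of 0. None of the 42 was called by limma, but 36 had an unadjusted p below 0.05 and the same 36 an adjusted p below 0.05, all lower at D8, and 37 had all D8 values below all D7 values, against 16.5% over all genes. Of all 12623 genes tested, 1757 were lower at an adjusted p below 0.05. The median log2 change was -0.30, and it was -0.35 and -0.32 after median-of-ratios and quantile scaling. Beside it, the median was -0.25 over 98 tested ribosomal protein genes and -0.09 over 18 tested reference genes used by most cells. Whether the fall of the cell cycle genes is separate from that of other abundant genes was not tested. Pcna, the sliding clamp of DNA replication, was at 601, 602 and 594 and then at 543, 548 and 537. Of 16 tested genes of cell cycle exit 2 rose (12.5%, beside 2.71% of all genes tested) and none fell. The median log2 change of the 16 was 0.54. All D8 values lay above all D7 values in 12 and below in 1, against 33.1% and 16.5% over all genes. Cdkn1a, which encodes the kinase inhibitor p21, rose from 77, 69 and 78 to 161, 165 and 162, and Gadd45b from 2, 1 and 1 to 6, 6 and 7, a stress-induced regulator of growth arrest. The 28 tested p53 targets had a median log2 change of 0.08, and Cdkn1a and Trp73 were the only ones that rose (7.14%). Of the 28, 12 lay wholly above their D7 values and 5 wholly below.

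The connections of neurons were represented by channels, receptors and guidance molecules. Among 58 tested genes of synapses and ion channels 13 rose and none fell, with a median log2 change of 0.59. The share that rose was 22.4%, beside 2.71% of all genes tested. All D8 values lay above all D7 values in 39 and below in 3, against 33.1% and 16.5% over all genes. Cacna2d1, a calcium channel subunit, rose from 2 in each library to 11, 9 and 10, Chrnb2, a nicotinic receptor subunit, from 7, 8 and 8 to 26, 24 and 26, and Scn3b, a sodium channel subunit, from 2 in each to 8, 8 and 9. Of the exons of Chrnb2 some overlap those of Adar on the other strand, and the sources used here do not state whether reads were counted by strand. Of 58 tested guidance genes 8 rose (13.8%) and none fell, and 40 lay wholly above their D7 values and 5 wholly below. Nrp2, a semaphorin receptor, rose from 1, 2 and 2 to 12, 10 and 11, Robo3, a receptor of commissural axons, from 5 in each to 17, 21 and 21, and Dcc, the netrin receptor, from 15, 18 and 20 to 43, 39 and 39. In each of these 6 genes the days did not overlap. Nnat, an imprinted gene of neural tissue, rose from 643, 696 and 672 to 1789, 1690 and 1842, the highest level among the genes that rose.

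Few genes fell, and the steepest falls were of short or overlapping transcripts. Mir682, Mir3093, Snord61 and Snora33 were among the 5 largest decreases, Mir682 at 37, 6 and 29 at D7 and 0 in each D8 control. In every control the lowest value above 0 of a microRNA row was 4 or 5, and the row of Mir682 varied 6-fold between D7 libraries, so these rows carry few reads or large steps, and they are uncertain. Mir3093 and Snora33 each lost the call when any of 5 of the 6 libraries was left out (limma adjusted p from 0.0762 to 0.0865 and from 0.108 to 0.143). Sap25, a subunit of a corepressor, was at 10, 11 and 8 and then listed at 0 in each D8 control, but its exons overlap those of Gm20605 on the same strand, which was at 6, 5 and 5 and then at 8, 10 and 11, so the assignment of reads between them is uncertain. Mir17 was listed at 0 in the D7 controls and at 6, 13 and 12 at D8, whereas its host transcript Mir17hg, chosen after its values were seen, fell from 20, 18 and 17 to 7, 10 and 9. Longer genes that fell had tighter values. Maob, a monoamine oxidase, fell from 13, 15 and 15 to 3 in each library (log2 change -1.94 ± 0.06 SE, limma adjusted p = 6.6e-05). Nr6a1, a nuclear receptor of the early embryo, fell from 46, 48 and 48 to 20, 19 and 18, and Prtg, a receptor of early neuroectoderm, from 24, 25 and 24 to 11, 10 and 9. Scube2, which helps to release hedgehog protein, fell from 23, 24 and 23 to 8, 10 and 8, and Pnoc, the precursor of a neuropeptide, from 18, 20 and 18 to 6, 8 and 6. Vit, an extracellular matrix protein, fell from 9, 11 and 12 to 3 in each library. Among 17 tested pluripotency and epiblast genes limma called none, 12 having an unadjusted p below 0.05 (4 higher, 8 lower). At an adjusted p below 0.05, 4 were higher and 7 lower, beside 3575 and 1757 of all 12623 genes tested. Lin28a, an RNA-binding protein of early progenitors that blocks the maturation of let-7, was at 91, 78 and 82 and then at 43, 43 and 38, a log2 change of -0.999 that stopped short of the limit and passed it after median-of-ratios (-1.04) or quantile scaling (-1.06).

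The day effect was then compared with that in embryoids, where the libraries are set apart by the Hprt level described above. The difference of the log2 changes, controls minus embryoids, was called in 345 of 13751 genes (2.51%), 123 with a larger and 222 with a smaller change in controls, and these included 107 of the 342 genes that rose in controls and 16 of the 26 that fell. Over all tested members, the median log2 change was 1.13 in controls and 0.78 in embryoids for the pan-neuronal genes, 0.97 and 0.70 for the commitment factors, 1.30 and 0.47 for Cajal-Retzius genes, and 0.21 and 0.20 for the regulators of multiciliated cells. Over all tested members, the difference was called larger in controls in 2 of 49 pan-neuronal genes, 2 of 30 commitment factors, 6 of 23 Cajal-Retzius genes and 5 of 28 regulators. It was called smaller in 0, 2, 1 and 0 of them. The medians and the counts of differing genes over risen members alone set controls higher by the choice of members. Both are given as a description, and so are the 107 and 16 genes above. The 30 risen pan-neuronal genes had a median log2 change of 1.31 in controls and 1.00 in embryoids, with 2 of the 30 differing, and the 13 risen commitment factors 1.37 and 0.91, also with 2 differing. Tubb3 had a log2 change of 1.07 in controls and 1.27 in embryoids, a difference of -0.21 ± 0.35 (SE), though at a lower level in embryoids, 98, 118 and 170 at D7 and 463, 213 and 286 at D8. For Cajal-Retzius genes the medians of the 12 risen members were 1.82 and 0.25, with 6 differing, and for the 9 risen regulators of multiciliated cells 1.68 and 0.33, with 5 differing. Trp73 and Tbr1 were listed at 0 in all 6 embryoid libraries, and Mcidas was at 0, 0 and 0 and then at 1, 0 and 0. The difference of the log2 changes was 2.64 ± 0.13 for Trp73 and 1.55 ± 0.31 for Mcidas (limma adjusted p = 2.7e-06 and 0.013). Ccno and Cdc20b rose in controls and had no called difference (0.46 ± 0.21 and 0.73 ± 0.22), with embryoid values of at most 2. Pax6 went the other way, with a log2 change of 1.05 in embryoids against -1.01 in controls. All 9 risen regulators, 5 of the 12 risen Cajal-Retzius genes, 5 of the 13 commitment factors and 5 of the 30 pan-neuronal genes had values of at most 3 in every embryoid library, where whole numbers leave little room to measure a change.

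**Figure D5:**
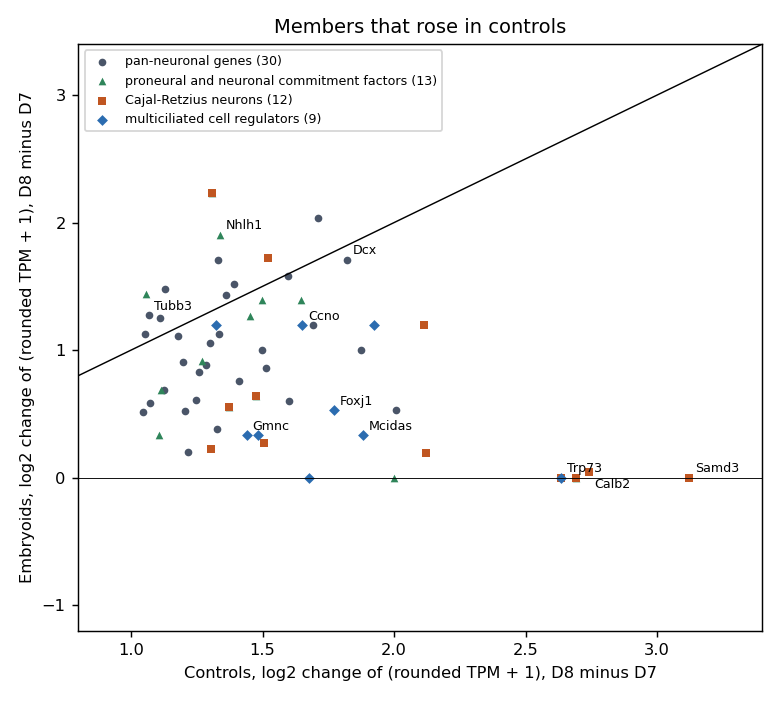
Log2 change of (rounded TPM + 1), D8 minus D7, in embryoids against that in controls, for the members of 4 lists that rose in controls (a gene in 2 lists has 2 points), with the line of equal change. Pan-neuronal genes such as Tubb3 and Dcx lie near the line, whereas Samd3, Calb2 and Trp73 lie near 0 on the embryoid axis. The choice of members by their rise in controls sets the points towards a larger change in controls.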

How the data were processed

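RNA-seq of 12 libraries of mouse ESC aggregates was used, 3 in each of 4 groups by the labels, and 6 of them, the controls at D7 and D8, were compared. Total RNA of pools was sequenced as 75-bp single-end reads. Per the labels, the authors used STAR 2.6.1a, SAMtools 0.1.20, featureCounts and DESeq2 with the build mm10. The deposited table holds 1 score per gene and library, which the authors' methods and the totals near a constant show to be TPM rounded to whole numbers. Depth is therefore unknown, and its precision at low values is 1 TPM. No column was left unmapped.

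Values were compared as log2(TPM + 1), with a pseudocount of 1, by limma 3.58.1 (R 4.3.3; moderated variances with trend and robust options, statmod 1.5.0) over genes with a mean above 1 in either group, with Benjamini-Hochberg adjustment over all genes tested. A gene was called at an adjusted p below 0.05 and a log2 change beyond 1 in size. The difference of the day effect was the interaction in a fit of all 12 libraries. The study calls its replicates biologically independent. Positions came from GENCODE M21 (GRCm38) and promoters from RefSeq (GRCm38.p6). Motifs and figures used Python 3.11.15 and matplotlib 3.10.9. The script was tested on simulated data.

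The comparison and the 39 gene lists were chosen with earlier results of these data known. Named genes were the 15 largest increases and up to 15 largest decreases, up to 8 called members per direction and 4 uncalled members of the highest mean in each list, cell type markers, members that complete a ligand-receptor, paralog or regulator-target group, and the 5 largest differences of the day effect per direction. Genes chosen after their values were seen are Adar, Hprt, Gm20605, Mir17hg, the Mir449 genes, the chromosomal neighbours, those of the last part of the closing section, and the list members Axin2, Bmp4, Chrnb4, Foxn4, Gad1, Gad2, Gap43, Lmx1a, Nefl, Nes, Plk4, Sass6, Sfrp1, Sfrp2, Slc32a1, Sox2 and Syp. The values of some members that the rule names are not reported here. Alternatives were the pseudocount, the filter, the scaling, the variance model, the fold limit, all 12 libraries in the fit, the replicate block and each library left out.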

Additional observations from a re-analysis of the deposited data

Results flagged for a closer look

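The change from D7 to D8 differed between controls and embryoids in 345 genes by the interaction test. Among the genes called in controls, the difference of the log2 changes was largest in the positive direction for Mir1898 (4.60), Slc14a2 (4.15), Samd3 (3.12), Asic2 (2.94) and Wnt3a (2.86). In the embryoids, Slc14a2 was listed at 0 in all 6 libraries and Samd3 at 0 or 1, and Wnt3a was at 7, 7 and 8 and then at 15, 5 and 10. In the negative direction it was largest for Sap25 (-4.39), Mir682 (-4.00), Mir3093 (-3.93), Vit (-2.67) and Acta2 (-2.48). The difference of Sap25 was no longer called without embryoid D8 replicate 3 (limma adjusted p = 0.0531), and that of Mir682 without control D7 replicate 3, control D8 replicate 3 or any 1 embryoid D8 replicate (0.0503 to 0.0565) and at a pseudocount of 5 (0.12). Acta2, a smooth muscle actin, was at 1, 2 and 2 and then listed at 0 in the controls, against 66, 118 and 54 and then 125, 212 and 156 in embryoids. Mir1898, Mir682 and Mir3093 are short rows that moved in large steps, and Mir3093 was listed at 0 in all embryoids. A difference of line between controls and embryoids cannot be told apart from the treatment in these values.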

How the results depend on the processing

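No called change of a named gene turned direction under any alternative, while uncalled changes near 0 could, as for Twsg1 and Gnas. With a pseudocount of 5, which shrinks the changes of low genes, 126 genes were higher and 9 lower. Without a minimum fold 3575 and 1757 were. Difference of the day effect, control minus embryoid, was called for 110 and 1248 genes under these settings. Quantile scaling gave 52 lower genes. Leaving out a library gave 302 to 360 higher and 23 to 40 lower genes, the 40 without control D8 replicate 2. With the replicate block 293 and 19 genes were called. Calls lost there included Asic2 (limma adjusted p = 0.055), Gdf5 (0.065), 1110017D15Rik (0.071), Lhx2 (0.083) and Slc17a6 (0.088). The differences of the day effect of Sap25 (0.0513) and Mir682 (0.066) were lost too. Same-numbered libraries did not deviate together (correlations -0.0774, -0.016 and -0.0686). The sources used here do not state whether such libraries were made together, and these correlations cannot decide it. Dropping the trend and robust options left the counts at 342 and 26. Leaving out the microRNA and snoRNA rows, an alternative chosen after the data were seen, gave 337 and 21. Of the calls, 125 of 342 and 9 of 26 remained at a pseudocount of 5. Besides those already given, the calls lost there included Myt1l, Nfia, Gadd45b, Scn3b, Lhx2, Pax6, Prtg and Vit. What depth limits cannot be measured in rounded TPM.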

Other observations

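Genes outside the lists, chosen after their values were seen, rose too. Islr2, a membrane protein of growing axons, went from 24, 22 and 24 to 104, 92 and 107, and Lmo2, a LIM-only cofactor known from blood, from 13, 14 and 12 to 50, 57 and 57, while the markers of endothelium and blood stayed at a sum of 1 to 2. The neighbouring histone genes Hist3h2a and Hist3h2ba rose from 21 in each library to 68, 65 and 70 and from 48, 47 and 45 to 110, 110 and 118. Meis2, a homeobox gene, rose from 12, 8 and 10 to 28, 27 and 27.

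Of the clustered protocadherins, which give neurons distinct surface identities, 19 of 20 tested beta genes had all D8 values above all D7 values, against 33.1% over all genes, and 3 rose (Pcdhb10, Pcdhb16 and Pcdhb17), with a median log2 change of 0.79. In the gamma cluster 15 of 21 did so, with a median log2 change of 0.39, and limma called none, 16 having an unadjusted p below 0.05, all higher. In the alpha cluster 3 of 5 did so, with a median log2 change of 0.86, and limma called none, 3 being higher and 1 lower at an unadjusted p below 0.05. Such p-values were common over all 12623 genes tested, of which 3575 were higher and 1757 lower even at an adjusted p below 0.05. Ribosomal protein genes had a median log2 change of -0.25 over 98 tested, with 79 wholly below their D7 values, against 16.5% over all genes, and limma called none, 80 being lower and 2 higher at an unadjusted p below 0.05.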
